A study of Mus musculus with 36 samples.

Results

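Wwp1 and 6 related ubiquitin ligases of the Nedd4 type, Wwp2, Nedd4, Nedd4l, Itch, Smurf1 and Smurf2, were followed at the RNA level in mouse liver. Their probes were found by gene name and transcript accession, which gave 23 of the 41174 probes on the array, belonging to 7 of 19750 named genes. The set was selected on the values of Wwp1 itself, so its differences between groups are given as a description with no test. Its signal was lower in HF than in t=0 and higher in HF-Q than in HF on probe A_52_P464570 and, less so, A_51_P381373. The brightest Wwp1 probe, A_52_P300331, did not have this pattern. The other 6 genes are relatives of Wwp1 and were tested.

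By the labels all 36 mice were adult C57BL/6J males that had adapted for 3 weeks to a mild-high-fat diet with 30% of its energy as fat. The t=0 group (12 mice) was taken at the end of this adaptation, the HF group (12 mice) stayed on the same diet for 12 weeks, and the HF-Q group (12 mice) had 0.33% (w/w) quercetin, a plant flavonol, added to that diet over those 12 weeks. The methods of the study name the substrain C57BL/6JOlaHsd and a shorter adaptation. Animals were fasted before sampling. Age, time on the diet and the day of sampling differ together between t=0 and both later groups and cannot be told apart, whereas by the labels HF and HF-Q differ in quercetin. Every array held the Cy5-labelled RNA of 1 mouse beside a Cy3-labelled pool of all samples, and each of the 9 slides carried arrays of all 3 groups. Nothing in the labels ties mice of different groups to each other.

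Ubiquitin ligases of this type hold a C2 domain that binds membranes, WW domains that bind proline-rich PY motifs of substrates and adaptors, and a catalytic HECT domain that takes ubiquitin from an E2 enzyme before passing it on. They mark receptors, channels, Smad proteins and transcription factors for removal or sorting. In liver they are known for their part in TGF-β and growth factor signalling.

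In the 3 groups the values are log2 signals of the authors' table, in which each array has the same median (8.96), so that a difference of 1 is a doubling relative to the other probes of that array. The table holds 19 of the 23 probes. The other 4, 1 of Wwp1, 1 of Wwp2 and 2 of Itch, had Cy5 signals of 1.49 to 2.13 times background and were left out of the tests. Levels are set side by side only within a probe. Whole liver was measured, so fewer cells of a type and less RNA per cell cannot be told apart. On 1 array, HF-Q replicate 2, 96.7% of the spots were well above background in Cy5, against 56.4% to 67.4% on the other 35. Of 7 hepatocyte markers 6 were in the table. Alb had group means of 19.22 to 19.25. In HF minus t=0, Cyp2e1 (-0.36, limma adjusted p = 0.0156) and Cps1 (-0.32, adjusted p = 0.0184) were called as lower. Ttr (-0.21), Tat (0.23), Apoa1 (0.08) and Alb (0.03) were not called there. In HF-Q minus t=0, Cps1 (-0.45, limma adjusted p = 0.00294) and Ttr (-0.33, adjusted p = 0.0377) were called as lower. Apoa1 (-0.05), Tat (0.04), Alb (0.02) and Cyp2e1 (-0.01) were not called there. Cyp2e1 was 0.35 higher in HF-Q than in HF, without a call.

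Wwp1, a ligase known for targeting Krüppel-like factors and members of the TGF-β pathway, was measured by 3 probes that did not tell the same story. They lie on the minus strand of chromosome 4, at chr4:19600313-19600372, chr4:19538789-19538848 and chr4:19536481-19536540 of mouse build mm8, in the order of transcription. The second lies 61.5 kb and the third 63.8 kb downstream of the first. Exon and untranslated region boundaries in this build were not used here.

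The most upstream Wwp1 probe, A_52_P464570, had log2 signals from 9.76 to 10.33 (median 10.02) in t=0. In HF they ran from 9.01 to 9.38 (median 9.22). In HF-Q they ran from 9.43 to 10.00 (median 9.72). Every HF mouse lay below every t=0 mouse and below every HF-Q mouse, while HF-Q and t=0 overlapped. The means were 10.03 ± 0.17, 9.21 ± 0.12 and 9.72 ± 0.18 (SD, n = 12 each). The HF mean was 0.82 below t=0 (SE 0.06), which is a 1.77-fold lower signal. The HF-Q mean was 0.51 above HF (SE 0.06), a 1.43-fold higher signal, and 0.31 below t=0 (SE 0.07). On each of the 9 slides the HF arrays averaged below the t=0 arrays, by 0.57 to 1.12, and the HF-Q arrays above the HF arrays, by 0.27 to 0.73. The comparisons with t=0 and with HF-Q rest on the same 12 HF arrays.

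The brightest Wwp1 probe, A_52_P300331, whose Cy5 signal was 81.3 times background against 16.6 times for A_52_P464570, did not have this pattern. Its log2 signals ran from 11.71 to 12.19 (median 12.01) in t=0, from 11.66 to 12.64 (median 12.01) in HF and from 11.74 to 12.35 (median 12.04) in HF-Q. The groups overlapped throughout, and the HF mean differed from t=0 by 0.03 (95% interval -0.16 to 0.22) and the HF-Q mean from HF by 0.01 (-0.18 to 0.21). The most downstream probe, A_51_P381373, lay between the other two. Its means were 9.42 ± 0.22 in t=0, 9.13 ± 0.13 in HF and 9.28 ± 0.17 in HF-Q (SD, n = 12 each). Its HF mean was 0.29 below t=0 (SE 0.07) with all 12 HF mice under the t=0 median, and its HF-Q mean was 0.14 above HF (SE 0.06), with overlap in both comparisons.

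**Figure D1:**
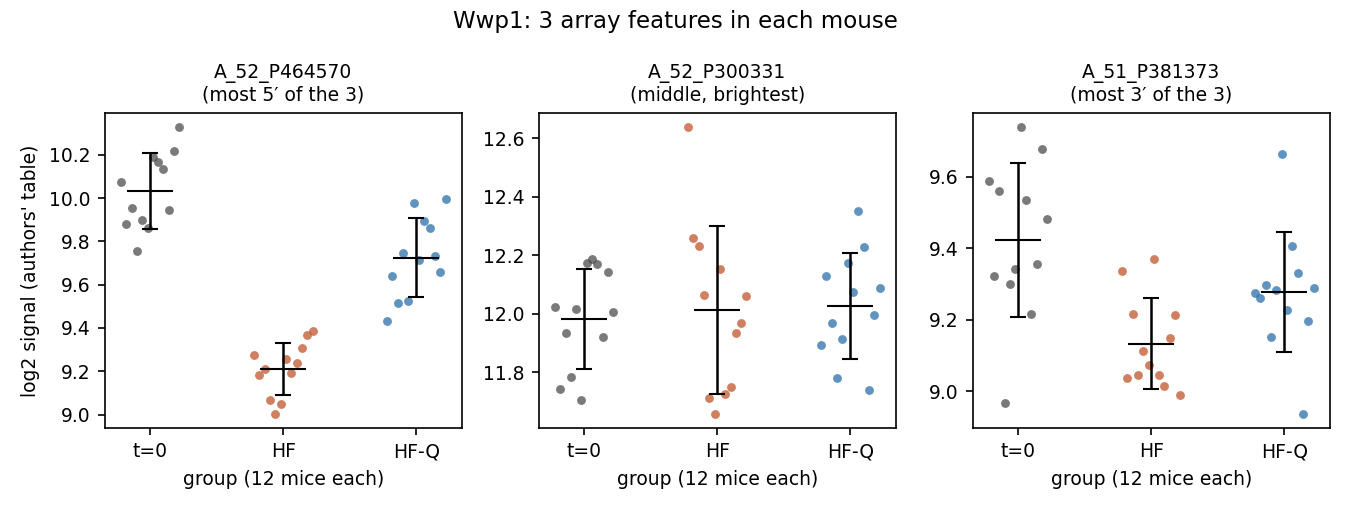
Log2 signal of the 3 Wwp1 probes (vertical axis, a separate scale in each panel) in t=0, HF and HF-Q, with a point for each of 12 mice a group and the mean and SD in black. The HF mice stand apart in the left panel (9.01 to 9.38) and lie among the others in the middle panel (11.66 to 12.64).

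The gap between Wwp1 probes was measured within each mouse, since both values come from the same array. A_52_P464570 minus A_52_P300331 was -1.95 ± 0.11 in t=0, -2.80 ± 0.26 in HF and -2.30 ± 0.18 in HF-Q (SD, n = 12 each). The 12 HF mice ran from -3.36 to -2.52 and the t=0 mice from -2.12 to -1.68, without overlap. Over the 4810 genes with at least 2 probes in the table, the probes of a gene had HF minus t=0 differences that spanned a median of 0.13, beside 0.85 for Wwp1. For HF-Q minus HF the median span was 0.08, beside 0.50 for Wwp1, and these values are descriptions too, since they rest on the values that chose the set. From mouse to mouse within the groups the 3 probes still moved in the same direction. The correlations of their deviations from the group means were 0.51, 0.54 and 0.49 over 36 mice, a description in which the probes share arrays. The remaining probe of Wwp1, A_52_P165455, which lies between the first and the second, was well above background on 23 of the 36 arrays and gave no level in the table.

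Nedd4, the founding member of the family, known for handling growth factor receptors and their adaptors, had the largest tested change of the 6 relatives and a similar disagreement among its probes. The middle probe, A_51_P295022 (plus strand, chr9:72541225-72541284, mm8), had log2 signals from 12.98 to 13.33 (median 13.15) in t=0. In HF it ran from 12.12 to 13.04 (median 12.68), and in HF-Q from 12.62 to 13.19 (median 12.90). All 12 HF mice lay below the t=0 median, with a small overlap of the groups, and HF-Q lay between. The signal fell by 0.48 from t=0 to HF (SE 0.07, limma adjusted p = 4.57e-05, 1.40-fold lower). It kept its call in 14 of 14 alternative settings. HF-Q was 0.27 above HF (SE 0.08), with 11 of 12 mice over the HF median and 9 of 9 slides in that direction, but the adjusted p of 0.0949 missed the threshold. In 4 of 15 alternatives it passed, with a lowest adjusted p of 0.0456. Within HF-Q, replicates 1 to 6 (12.62 to 12.84) all lay below replicates 7 to 12 (12.96 to 13.19). The later replicates were mostly higher in the other groups too. In t=0, replicates 1 to 6 ran from 12.98 to 13.17 and replicates 7 to 12 from 13.13 to 13.33. In HF they ran from 12.12 to 12.72 and from 12.59 to 13.04. The reported fit takes no account of this order. HF-Q was below t=0 by 0.22 (SE 0.07, adjusted p = 0.0367), a call made in 8 of 14 alternatives, and without HF-Q replicate 2 its adjusted p was 0.0557.

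The probe of Nedd4 nearest to the end of the transcript, A_52_P648424 (chr9:72548065-72548124, mm8), lies 6.84 kb downstream and was also bright, at 112 times background. Its means were 12.50 ± 0.15 in t=0, 12.50 ± 0.08 in HF and 12.46 ± 0.12 in HF-Q (SD, n = 12 each). No difference passed the test, and the 95% interval of HF minus t=0 ran from -0.11 to 0.10. The third probe, A_52_P352362 (chr9:72493465-72493524, mm8), carries an older gene name in the array design that is now a synonym of Nedd4. It was dim, at 4.91 times background, and had means of 7.95 in t=0, 7.85 in HF and 7.74 in HF-Q, with no call. In each mouse, A_51_P295022 minus A_52_P648424 was 0.64 ± 0.13 in t=0, 0.17 ± 0.25 in HF and 0.47 ± 0.13 in HF-Q (SD, n = 12 each). This pair was chosen after its values were seen, so the gap is given with no test. It was 0.48 smaller in HF than in t=0 and 0.30 larger in HF-Q than in HF, where 12 of 12 HF-Q mice exceeded the HF median.

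**Figure D2:**
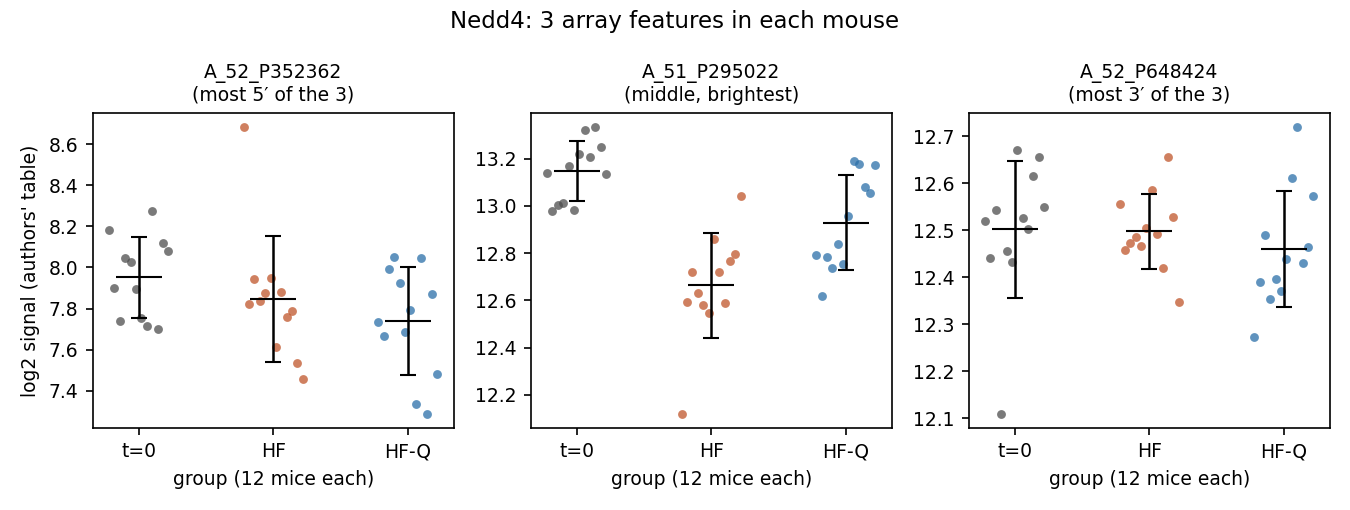
Log2 signal of the 3 Nedd4 probes (vertical axis, a separate scale in each panel) in t=0, HF and HF-Q, with a point for each of 12 mice a group and the mean and SD in black. HF is low in the middle panel (mean 12.66 against 13.15 in t=0), while the right panel has means of 12.46 to 12.50.

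A single HF mouse stood apart on several of these probes. HF replicate 1 had the lowest Nedd4 A_51_P295022 signal of its group (12.12), the highest A_52_P352362 signal (8.68) and the highest Wwp1 A_52_P300331 signal (12.64). Without it, which was decided after the values were seen, Nedd4 A_51_P295022 fell by 0.43 from t=0 to HF (adjusted p = 1.5e-05) and Wwp1 A_52_P464570 was 0.83 lower. The calls of Wwp2 A_52_P110999 (adjusted p = 0.0619) and Smurf1 A_52_P516 (adjusted p = 0.0503) were then lost, and Itch A_52_P209852 was called (0.19 lower, adjusted p = 0.0292).

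Nedd4 has 2 transcription starts in the RefSeq promoter table (build GRCm38.p6), and 4 of the 7 genes have an entry there. Wwp1, Itch and Nedd4l are not listed. The 250 bases before each Nedd4 start are shown because this gene carries the strongest tested change and its starts differ in base composition. Capitals mark matches, on either strand, to the GC box GGGCGG and the CCAAT box CCAAT, which do not overlap here. The E-box CACGTG, the D-box TTATGTAA and the TATA box TATAAA were searched as well and matched neither window.

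Nedd4 first start, plus strand, chr9:72662081-72662330: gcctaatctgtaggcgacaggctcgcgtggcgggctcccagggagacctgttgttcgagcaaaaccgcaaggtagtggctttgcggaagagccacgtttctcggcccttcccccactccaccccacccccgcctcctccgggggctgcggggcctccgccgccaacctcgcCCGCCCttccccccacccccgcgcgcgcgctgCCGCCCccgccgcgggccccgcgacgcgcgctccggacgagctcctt
Nedd4 second start, plus strand, chr9:72693048-72693297: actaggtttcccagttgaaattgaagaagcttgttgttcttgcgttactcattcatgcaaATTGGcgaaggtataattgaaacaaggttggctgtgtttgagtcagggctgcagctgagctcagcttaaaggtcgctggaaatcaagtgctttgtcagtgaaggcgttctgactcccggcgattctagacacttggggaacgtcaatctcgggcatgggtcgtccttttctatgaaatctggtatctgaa

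The first window is 74% G and C with 2 GC boxes and no CCAAT box, and the second is 46% G and C with 1 CCAAT box and no GC box. Of 32851 promoter windows of this length, 32.7% hold the GC box, 33.8% the CCAAT box, 12.4% the TATA box, 6.02% the E-box and 0.819% the D-box. The windows of Smurf2 (82% G and C, 7 GC boxes) and Smurf1 (74.8%, 1 GC box) hold none of the others, and that of Wwp2 (62.8%) holds 1 GC box, 1 E-box and 1 TATA box. These matches describe letters in the windows and are no evidence of binding.

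For the relatives as a group, 5 of 16 probes passed the test in HF minus t=0 (limma, Benjamini-Hochberg over all 21781 probes, adjusted p under 0.05), where 21.3% of all probes were called, 10.9% as higher and 10.4% as lower. In HF-Q minus HF, 0 of 16 passed, where 2.36% of all probes were called, 1.49% as higher and 0.863% as lower. Of these 16 probes, 5 had an unadjusted limma p under 0.05, beside 3359 of all 21781 probes. The methods' t-test also called 0 of the 16. In HF-Q minus t=0, 3 of 16 passed against 11.9% of all probes, 6.62% as higher and 5.3% as lower. The 16 probes come from 6 genes and are not independent. Their median difference was -0.10 in HF minus t=0, beside -0.00 over all probes, and 0.04 in HF-Q minus HF, beside 0.01 over all probes.

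**Figure D3:**
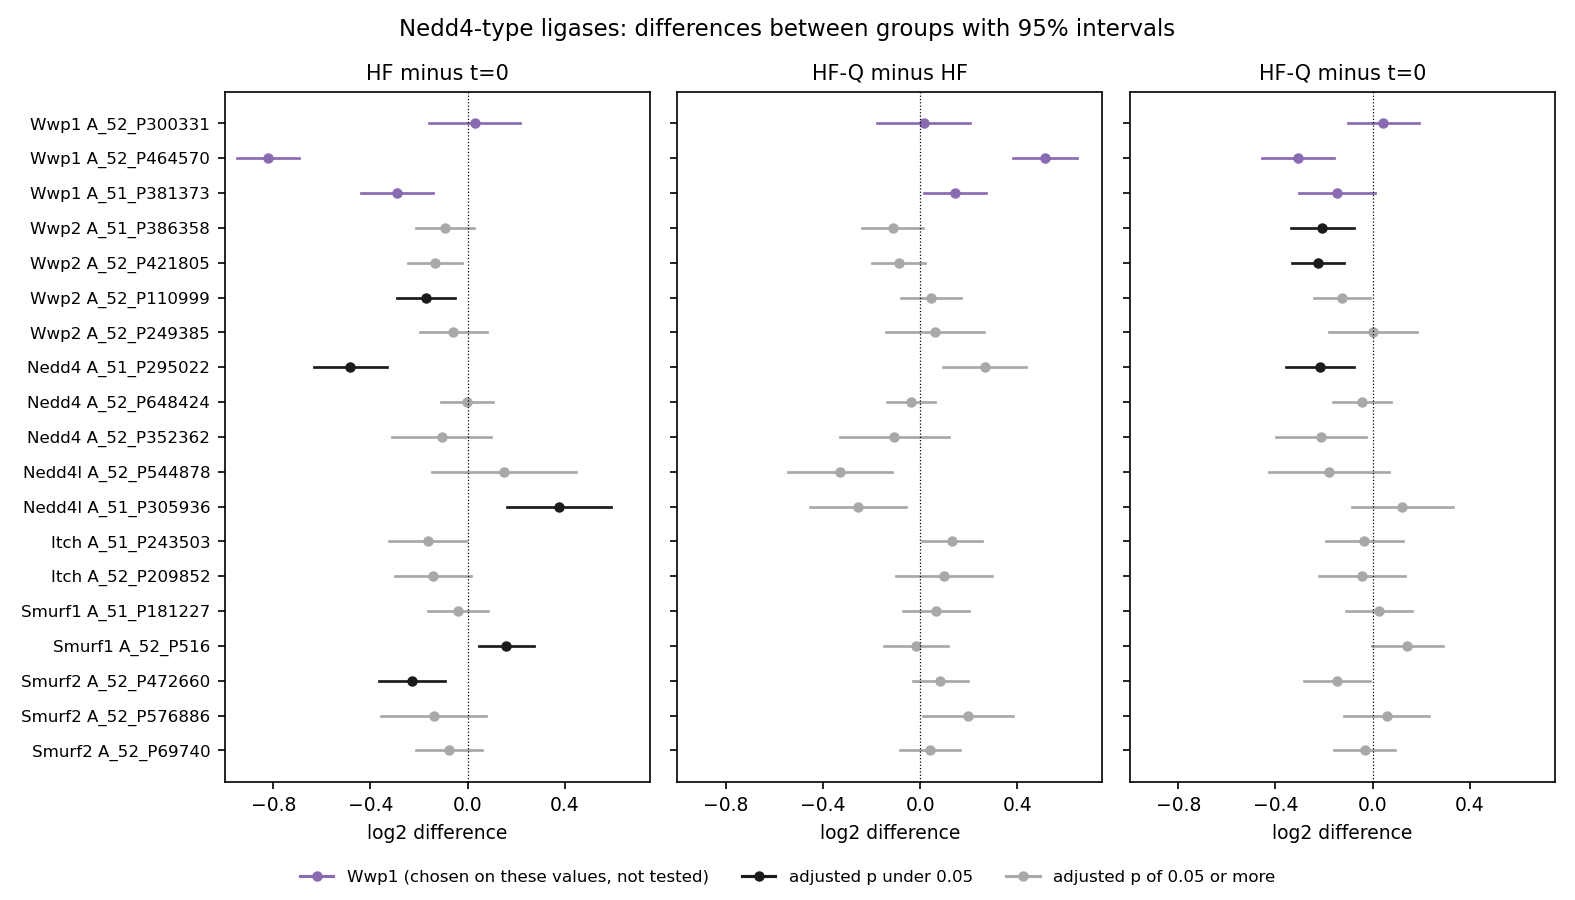
Log2 difference between groups (horizontal axis) for the 19 probes of the 7 genes, with 95% intervals, in the 3 comparisons. Of the 16 tested probes, 5 are black (called) in HF minus t=0, 0 in HF-Q minus HF and 3 in HF-Q minus t=0, and the Wwp1 probes are shown in purple with no test.

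Nedd4l, a ligase known for lowering the epithelial sodium channel, was higher in HF than in t=0 on a probe of modest brightness. A_51_P305936 (4.68 times background) ran from 6.98 to 7.91 (median 7.78) in t=0, from 7.72 to 8.54 (median 8.04) in HF and from 7.35 to 8.12 (median 7.86) in HF-Q. It rose by 0.38 from t=0 to HF (SE 0.10, adjusted p = 0.0117), with overlapping groups and 9 of 12 HF mice above the t=0 median. This call held in 14 of 14 alternatives. In t=0, replicates 9 to 12 (6.98 to 7.54) all lay below replicates 1 to 8 (7.61 to 7.91). That order was not part of the reported fit. The other probe, A_52_P544878, differed by 0.15 (SE 0.14, adjusted p = 0.471). Both probes were lower in HF-Q than in HF, by 0.25 (SE 0.10, adjusted p = 0.185) and by 0.33 (SE 0.10, adjusted p = 0.1003), and neither passed in any of 15 alternatives. On A_52_P544878 all 12 HF-Q mice lay below the HF median, with log2 signals from 7.66 to 8.21 against 7.82 to 8.76.

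Smurf2, known for acting on Smad proteins and TGF-β receptors, was lower in HF. Its brightest probe, A_52_P472660, ran from 9.29 to 9.93 (median 9.66) in t=0, from 9.28 to 9.66 (median 9.43) in HF and from 9.38 to 9.82 (median 9.50) in HF-Q. It fell by 0.23 from t=0 to HF (SE 0.07, adjusted p = 0.0149), with all 12 HF mice below the t=0 median and 9 of 9 slides in that direction. The other 2 Smurf2 probes differed by -0.14 and -0.07 and were not called. It was called in 12 of 14 alternatives, and not with each array of the scanner files centred on its median (-0.11, adjusted p = 0.458) or with Cy5 alone (-0.19, adjusted p = 0.106). Smurf1, its closest relative, had a called difference of 0.16 in the opposite direction on the dimmer probe A_52_P516 (SE 0.06, adjusted p = 0.0399), with means of 7.50 ± 0.15 in t=0 and 7.66 ± 0.09 in HF (SD, n = 12 each), and 11 of 12 HF mice above the t=0 median. It was called in 9 of 14 alternatives. The brighter Smurf1 probe, A_51_P181227, differed by -0.04 (adjusted p = 0.674).

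Wwp2, the closest relative of Wwp1, known for targeting Smad proteins, had called differences from t=0 in both later groups, on different probes. Its brightest probe, A_51_P386358, ran from 12.09 to 12.51 (median 12.25) in t=0, from 11.86 to 12.36 (median 12.16) in HF and from 11.73 to 12.29 (median 12.10) in HF-Q. HF-Q was below t=0 by 0.21 (SE 0.06, adjusted p = 0.0304), and the neighbouring probe A_52_P421805 fell by 0.22 (SE 0.05, adjusted p = 0.00601), calls made in 10 and 12 of 14 alternatives. On each of these probes 11 of 12 HF-Q mice lay below the t=0 median. From t=0 to HF these probes differed by -0.09 and -0.14 without a call, whereas A_52_P110999 fell by 0.17 (SE 0.06, adjusted p = 0.038), a call made in 8 of 14 alternatives. In HF-Q minus HF, A_51_P386358 differed by -0.11 (95% interval -0.24 to 0.01). The dim probe A_52_P249385 (2.36 times background) differed by -0.06 in HF minus t=0.

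Itch, a ligase known for limiting T cell activation and for targeting Jun proteins, had no called probe. Its brightest probe, A_51_P243503, ran from 11.14 to 11.85 (median 11.60) in t=0, from 11.07 to 11.56 (median 11.39) in HF and from 11.29 to 11.72 (median 11.55) in HF-Q. The HF mean was 0.17 below t=0 (SE 0.08, adjusted p = 0.127), with all 12 HF mice under the t=0 median, and the HF-Q mean was 0.13 above HF (SE 0.06, adjusted p = 0.286). The first of these was called in 4 of 14 alternatives and the second in 1 of 15. The dim probe A_52_P209852 differed by -0.14 and 0.10.

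**Figure D4:**
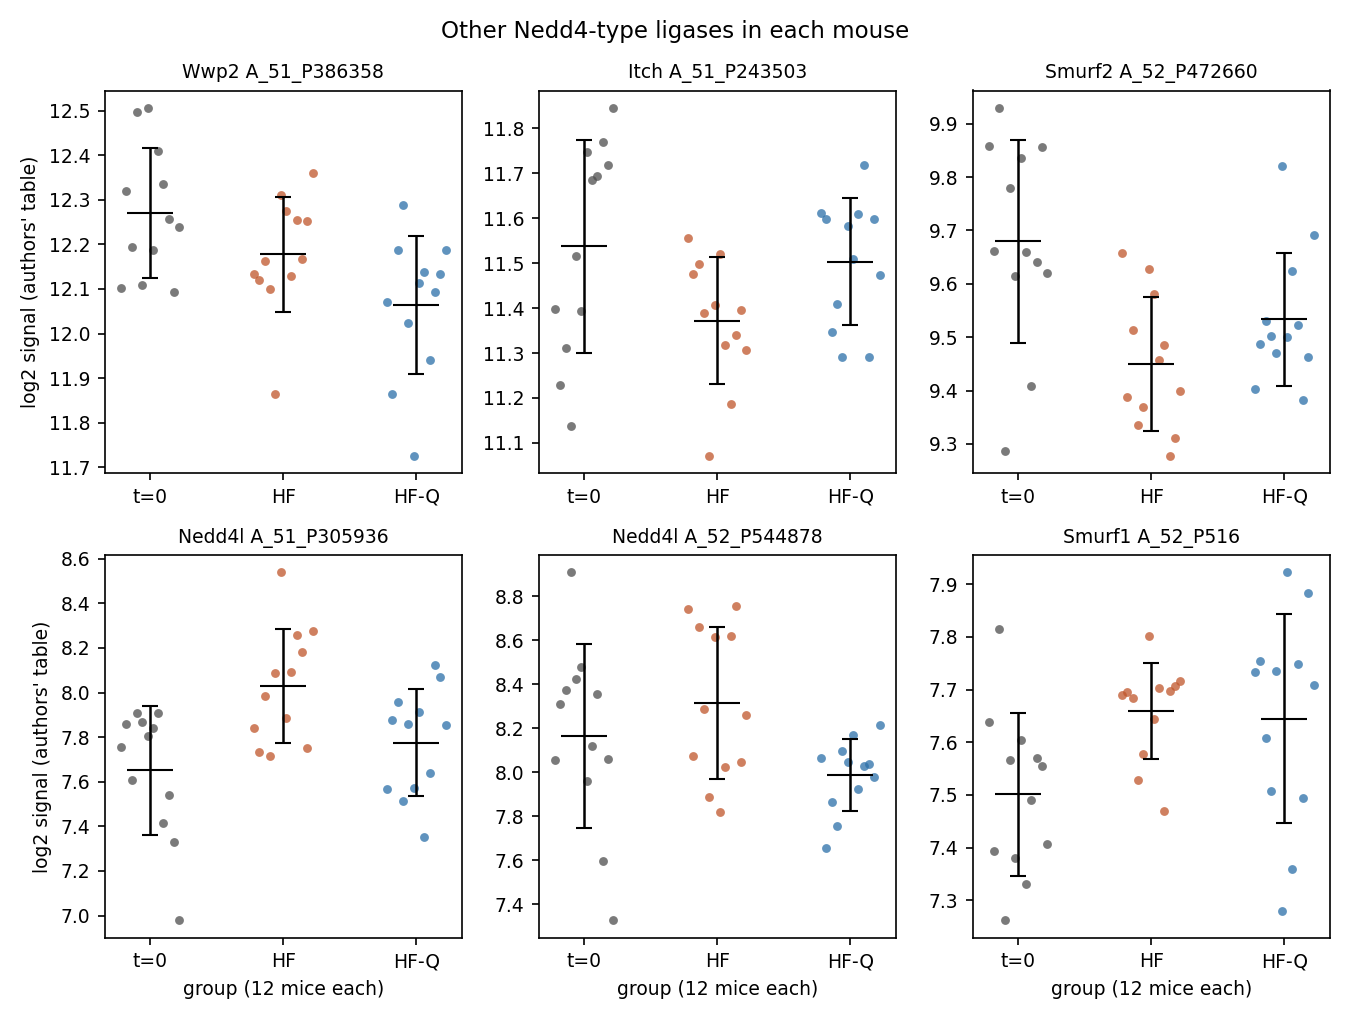
Log2 signal (vertical axis, a separate scale in each panel) of 6 probes of Wwp2, Itch, Smurf2, Nedd4l and Smurf1 in t=0, HF and HF-Q, with a point for each of 12 mice a group and the mean and SD in black. The groups overlap in every panel. The HF mice lie low on Smurf2 A_52_P472660 (9.28 to 9.66) and high on Nedd4l A_51_P305936 (7.72 to 8.54).

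Whether members varied together from mouse to mouse was tested on deviations from the group means, with the brightest probe of each gene, 36 mice and 21 pairs. Wwp1 and Itch were the 1 pair of 21 that passed, with Pearson r = 0.65 and Spearman rho = 0.67 (permutation within groups, two-sided, adjusted p = 0.00042 and 0.00063). The correlation was 0.71 in t=0, 0.75 in HF and 0.70 in HF-Q, 0.71 without the 2 mice farthest on the Wwp1 axis, 0.66 without HF replicate 1 and 0.71 with slide means removed as well. The arrays share labelling and normalization, and the part of these in the correlation was not tested. In t=0, the Itch signals of replicates 1 to 6 (11.14 to 11.52) all lay below those of replicates 7 to 12 (11.69 to 11.85). Wwp1 A_52_P300331 was mostly higher in the later replicates of t=0 too. The permutation takes mice of a group as exchangeable, and the part of this order in the correlation was not tested. The other 20 pairs had r from -0.40 to 0.34 and adjusted p of 0.196 or more.

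The genes most like Wwp1 were ranked by the correlation of these deviations over 36 mice, as a description. For the brightest probe they were Marchf8 (r = 0.88), a membrane-bound ubiquitin ligase, Ndufa4 (0.87), a respiratory chain protein, Ndufa1 (0.87), a subunit of respiratory complex I, Polr1d (0.86), a subunit shared by RNA polymerases I and III, and Bnip3l (0.86), a receptor for mitophagy. The lowest were Zer1 (-0.80), Ppip5k1 (-0.78), Znfx1 (-0.77), Drosha (-0.76), the nuclease that opens microRNA precursors, and Add1 (-0.76). For A_52_P464570, added after its values were seen, they were Acsm3 (r = 0.76), a medium-chain acyl-CoA synthetase, Mia2 (0.76), a protein of the endoplasmic reticulum exit sites, Hint3 (0.74), Cmc1 (0.74) and Zfp277 (0.72), and the lowest were Map1s (-0.66), Tor4a (-0.64), Ehbp1l1 (-0.62), Col4a1 (-0.62), a basement membrane collagen, and Crip2 (-0.61). Of these, Mia2 also had differences like those of A_52_P464570, with -0.76 in HF minus t=0 and 0.42 in HF-Q minus HF, and Acsm3 had -0.43 and 0.20. Hint3 and Cmc1 stayed within 0.03 of 0 in both.

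Among adaptors and other relatives of the family, 3 of 16 genes measured were called in HF minus t=0 (1 higher, 2 lower), 1 in HF-Q minus HF (6.25%, beside 2.36% of all probes) and 2 in HF-Q minus t=0 (12.5%, beside 11.9%). Ndfip2, an adaptor that recruits and activates Nedd4-type ligases, fell by 0.41 from t=0 to HF (SE 0.07, adjusted p = 0.000106) and was 0.39 lower in HF-Q than in t=0 (SE 0.06, adjusted p = 0.000194). N4bp2, a Nedd4-binding protein, was lower by 0.30 in HF (adjusted p = 0.00149) and by 0.19 in HF-Q (adjusted p = 0.0446). N4bp3, another Nedd4-binding protein, rose by 0.34 from t=0 to HF (SE 0.08, adjusted p = 0.00309) and was 0.38 lower in HF-Q than in HF (SE 0.10, adjusted p = 0.041). Both of its differences thus ran opposite to those of Wwp1 A_52_P464570. The median over the 16 genes was -0.05 in HF minus t=0 and 0.06 in HF-Q minus HF.

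Of the enzymes upstream, 0 of 9 E1 and E2 genes were called in HF minus t=0 (0.04 median) and 0 of 9 in HF-Q minus HF (0.02 median). In HF-Q minus t=0 1 of 9 was called, Ube2e2, an E2 enzyme, which was 0.29 higher in HF-Q (SE 0.06, adjusted p = 0.00344). Among substrates and partners, 6 of 43 genes were called in HF minus t=0, 6 higher and 0 lower, with a median over the 43 of 0.05. They were Smad1 (0.39 higher, adjusted p = 0.00312), which carries BMP signals, Cflar (0.37, adjusted p = 0.00306), an inhibitor of death receptor signalling, Jun (0.34, adjusted p = 0.0395), a subunit of AP-1, Sgk1 (0.23, adjusted p = 0.0228), a kinase that acts on Nedd4l, Notch1 (0.20, adjusted p = 0.0475), a receptor, and Usp7 (0.16, adjusted p = 0.0374), a deubiquitinase. In HF-Q minus HF 0 of the 43 were called (median -0.03), and in HF-Q minus t=0 1 was, Klf2, a Krüppel-like factor, lower by 0.31 (adjusted p = 0.0484). Of 16 other HECT ligases, 2 were called in HF minus t=0, Hectd4 (-0.19, adjusted p = 0.0101) and Hectd3 (-0.18, adjusted p = 0.0216), 0 in HF-Q minus HF, and 2 in HF-Q minus t=0, Hectd4 (-0.17, adjusted p = 0.0211) and Ube3c (-0.22, adjusted p = 0.0335). These shares were 18.8% for adaptors and relatives, 14.0% for substrates and partners and 12.5% for other HECT ligases in HF minus t=0, all below the 21.3% of all probes. In HF-Q minus t=0 they were 2.33% for substrates and partners, 11.1% for E1 and E2 genes and 12.5% for other HECT ligases. Of all probes 11.9% were called in that comparison, and 2.36% in HF-Q minus HF.

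Genes of the circadian clock differed between HF and HF-Q. Their list was chosen with earlier results of these data known, so its share of calls is a description. Of 15 clock genes measured, 7 were called in HF-Q minus HF, 5 higher and 2 lower (46.7% beside 2.36% of all probes), 3 in HF minus t=0 (20%, beside 21.3%) and 0 in HF-Q minus t=0 (beside 11.9%). Higher in HF-Q than in HF were Ciart (1.03), Dbp (0.92), Tef (0.63), Per3 (0.42) and Nr1d2 (0.42), with adjusted p from 0.00414 to 0.0143. Lower were Arntl (by 1.00, adjusted p = 0.0034), the gene of BMAL1, and its partner Clock (by 0.46, adjusted p = 0.00437). Not called in this comparison were Per2 (0.55), Per1 (0.37), Bhlhe41 (0.35), Hlf (0.34), Cry2 (0.24), Rora (0.04), Nr1d1 (-0.00) and Nfil3 (-0.31). From t=0 to HF, Nfil3 was higher by 0.53 (adjusted p = 0.0177), and Per3 (-0.28, adjusted p = 0.0379) and Bhlhe41 (-0.28, adjusted p = 0.0129) were lower.

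Within the groups, 1 probe of Wwp1 and 1 of Nedd4 were compared with these 15 clock genes from mouse to mouse, as 30 pairs. They were those with the largest differences between groups, chosen after their values were seen. The adjusted p values below account neither for that choice nor for the choice of the clock list. They are therefore given as a description. For Wwp1 A_52_P464570, 5 of 15 pairs passed, with Nr1d2, a repressor of the clock loop (Pearson r = 0.57, permutation adjusted p = 0.0073, Spearman rho = 0.56, adjusted p = 0.0124), Tef (r = 0.51, rho = 0.51), Dbp (r = 0.50, rho = 0.48), Arntl (r = -0.49, rho = -0.48) and Hlf (r = 0.42, rho = 0.43). The last 4 had permutation adjusted p of 0.0215, 0.0215, 0.0242 and 0.0499 for r, and 0.0165, 0.0243, 0.0246 and 0.0457 for rho. Without the 2 mice farthest on the clock gene's axis r was 0.56, 0.44, 0.48, -0.43 and 0.37. The relation with Nr1d2 was 0.85 in t=0, -0.11 in HF and 0.53 in HF-Q, and 0.72 with slide means removed. In HF none of the 5 followed the sign of the pooled value. For Nedd4 A_51_P295022, 4 of 15 passed for r, with Rora (r = 0.58, adjusted p = 0.0033, rho = 0.66, adjusted p = 0.0024, permutation), Nfil3 (r = -0.54, adjusted p = 0.0039, rho = -0.49, adjusted p = 0.0165, permutation), Dbp (r = 0.37, adjusted p = 0.045, rho = 0.45, adjusted p = 0.023, permutation) and Arntl (r = -0.37, adjusted p = 0.0499, rho = -0.38, adjusted p = 0.0686, permutation). Without the 2 farthest mice these were 0.56, -0.49, 0.31 and -0.38. The pairs at 0.0499 lie at the threshold and miss it when a few more pairs are adjusted over. Rora had the same sign in every group, with r = 0.69 in t=0, 0.40 in HF and 0.75 in HF-Q. In t=0, Nr1d2 and Wwp1 A_52_P464570 both lay below their group means in replicates 2 to 6. Nr1d2 lay above its mean in replicates 7 to 12. Nedd4 A_51_P295022 was mostly higher in the later replicates of each group. The permutation takes mice of a group as exchangeable, and the part of these orders in the correlations was not tested. Time of day at sampling is not in the labels, and its part in the differences of Wwp1 and Nedd4 was not tested.

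**Figure D5:**
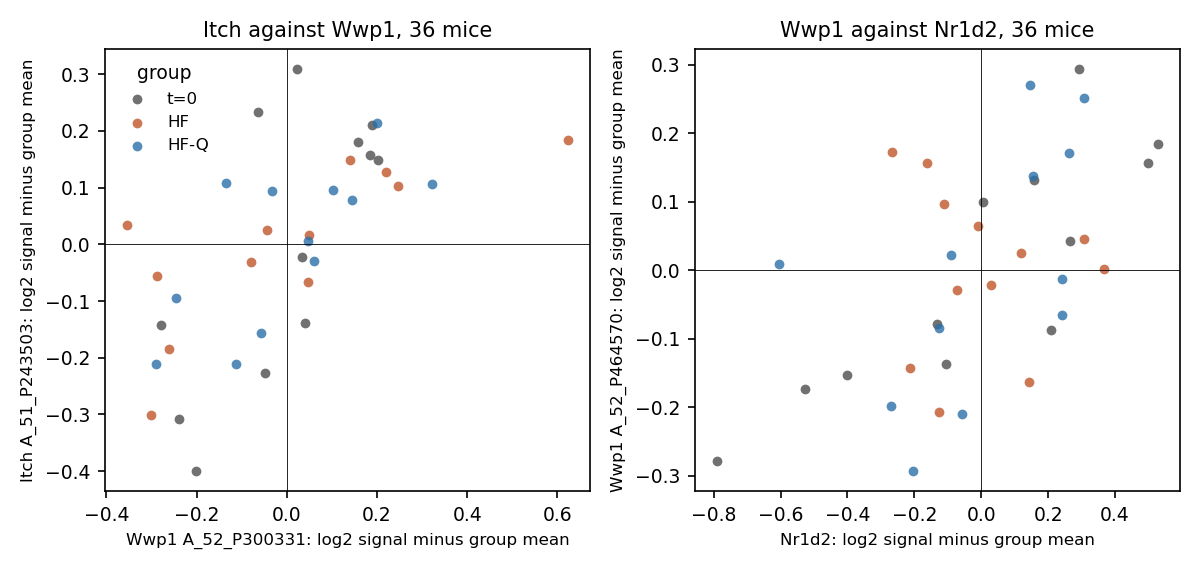
Left, Itch A_51_P243503 against Wwp1 A_52_P300331, and right, Wwp1 A_52_P464570 against the clock gene Nr1d2, both axes as log2 signal minus the group mean, with a point for each of 36 mice coloured by group. The left cloud rises in every group (r = 0.71, 0.75 and 0.70), while in the right one HF does not follow t=0 and HF-Q (r = -0.11 beside 0.85 and 0.53).

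Markers of other liver cells were read beside these results. Of all probes, 21.3% were called in HF minus t=0, 2.36% in HF-Q minus HF and 11.9% in HF-Q minus t=0. Cholangiocyte markers were called as higher in HF than in t=0 for 3 of 4 genes, with log2 summed signals of 9.87 to 10.59 in t=0, 10.51 to 11.20 in HF and 10.11 to 10.57 in HF-Q, and 1 of 4, Sox9, was called as lower in HF-Q than in HF (by 0.60, adjusted p = 0.00053). Of 6 hepatocyte markers 2 were called as lower in HF than in t=0 and 0 in HF-Q minus HF, with summed signals of 19.67 to 20.44, 19.89 to 20.39 and 19.81 to 20.61. None of the 6 Kupffer cell and macrophage markers or the 6 stellate cell and fibroblast markers was called by limma in any comparison. All 6 Kupffer cell and macrophage markers were higher in HF than in t=0, by 0.16 to 0.82 (limma adjusted p of 0.0557 or more). These 6 were also higher in HF-Q than in t=0, by 0.10 to 0.92. Of 5 endothelial markers 2 were called in HF minus t=0, 1 of them higher. In the same comparison 1 of 4 lymphocyte and 1 of 2 erythroid markers were called, both as higher, and 0 of 3 adipocyte markers were in the table. In HF-Q minus HF 1 of 5 endothelial markers, Pecam1, was called as higher (0.38, adjusted p = 0.00734). It was the dimmest of them, at 4.67 times background. The others, Lyve1 (-0.21), Kdr (-0.05), Cdh5 (-0.04) and Stab2 (0.04), were not called. In HF-Q minus t=0, where Wwp2 and Nedd4 had calls, 2 of 6 hepatocyte markers were called as lower, 1 of 4 lymphocyte markers as higher, and both erythroid markers were called, 1 of them higher. The part of cell composition in the differences of the ligases was not tested.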

How the data were processed

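Liver RNA of 36 mice was hybridised to Agilent two-colour arrays, 12 mice a group, with groups and replicate numbers taken from the labels. The scanner files deposited by the authors hold the median intensity of each spot and of its local background in both channels, quantified with Agilent Feature Extraction 10.5.1.1 per the submitters' processing notes. The authors' table holds log2 values for 23256 spots, which matched log2 Cy5 minus log2 Cy3 plus the spot's mean log2 Cy3, without background subtraction (lowest correlation of an array 0.9999). Its direction is Cy5 up. The table kept the spots whose signal to background ratio, averaged over the channels and the 36 arrays, exceeded 2.

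Spots of a probe were averaged, which left 21781 probes, and 2 groups at a time were compared with limma 3.58.1 (lmFit and eBayes in R 4.3.3, two-sided, Benjamini-Hochberg over all probes, adjusted p under 0.05). The script was tested on simulated data. Intervals cover 95%, and precision is limited by the number of arrays. Scanner intensities served for alternatives, with normexp correction (offset 50), loess, and outlier spots (113 to 217 an array) left out. Probes were named through current gene symbols, 24375 by accession and 8727 by name, while 8072 had none. Positions are those of build mm8 in the files, and promoters come from RefSeq (GRCm38.p6). Correlations used 100000 permutations within groups in Python 3.11.15, whose smallest p is 1e-05. The genes and lists were chosen with earlier results of these data known. Some listed genes are not reported here. Named are every probe of the 7 genes, of each list up to 6 called genes by size and every clock gene measured, and the 5 genes most and least like Wwp1. Alternatives were other normalizations, slide or replicate blocks, array weights, 1 fit of all arrays, the methods' t-test and left-out arrays.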

Additional observations from a re-analysis of the deposited data

How the results depend on the processing

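Wwp1 A_52_P464570 stayed lower in HF than in t=0, by 0.66 to 0.95 in 14 alternatives, and higher in HF-Q than in HF, by 0.40 to 0.56 in 15, with the smallest first difference (-0.66) under loess with scale normalization. That setting also gave -0.11 for HF-Q minus t=0 on this probe, and 0.32 and 0.30 for HF-Q minus HF and HF-Q minus t=0 on A_52_P300331. The cause was not tested. With a replicate block, 4636, 360 and 2372 probes were called in HF minus t=0, HF-Q minus HF and HF-Q minus t=0, against 4645, 513 and 2596 without it. The deviations of same-numbered mice correlated little (median 0.06, -0.0097 and 0.03, with 4, 3 and 4 of 12 pairs over 0.1). This cannot settle whether such mice were handled together, and the labels do not pair them. Under the replicate block Nedd4 A_51_P295022 passed in HF-Q minus HF (adjusted p = 0.0468), and Smurf1 A_52_P516 in HF minus t=0 (0.0518) and Wwp2 A_51_P386358 in HF-Q minus t=0 (0.0616) did not.

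Counts of called probes that moved by over 1.5 times were, for HF minus t=0, 2806 with Cy5 alone, for HF-Q minus HF, 69 with median centring, 81 with loess and scale, 206 with Cy5 alone, 210 with slide as a fixed block and 804 with array weights, and for HF-Q minus t=0, 348, 564 and 1216 in the first 3 of these and 4220 with array weights. The split of higher against lower calls moved by over 10 points in HF minus t=0 with median centring (2948 and 378, against 2384 and 2261), where the median of all probes was 0.12. In HF-Q minus HF (325 and 188) it was 18 and 51 with median centring, 266 and 234 with Feature Extraction's processed signals and 155 and 55 with slide as a block. In HF-Q minus t=0 (1442 and 1154) it was 1165 and 2204 with the processed signals and 460 and 756 with Cy5 alone. Of the 5 genes most like Wwp1 A_52_P300331, 3 were shared by a ranking on Spearman's rho and 2 by scanner values, and for A_52_P464570 4 and 3.

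Leaving out HF replicate 1 was added after the data were seen. Wwp1 A_52_P300331, whose differences lie near 0, ran from -0.027 to 0.15 in HF minus t=0 and from -0.0096 to 0.32 in HF-Q minus HF. Tested differences that turned in sign were uncalled in both settings, with adjusted p over 0.37 where they had turned and of 0.201 or more in the reported fit. In HF minus t=0 they were, with median centring, Nedd4 A_52_P352362 (0.0017) and A_52_P648424 (0.12), Smurf1 A_51_P181227 (0.066), Smurf2 A_52_P69740 (0.032) and Wwp2 A_51_P386358 (0.032). Cy5 alone gave 0.0030 for Smurf1 A_51_P181227, and array weights 0.0035 for Wwp2 A_52_P249385. In HF-Q minus HF, Wwp2 A_52_P110999 gave -0.0014 with Cy5 alone, -0.010 with processed signals, -0.0048 with array weights, -0.024 with loess and scale, -0.00061 with loess and -0.070 with median centring. Smurf1 A_51_P181227 gave -0.012 with processed signals, -0.013 with array weights and -0.072 with median centring, and A_52_P516 gave 0.011 with loess and scale. Smurf2 A_52_P69740 gave -0.067 with Cy5 alone, -0.010 with loess and -0.12 with median centring. Nedd4 A_52_P648424 gave 0.14 with Cy5 alone and 0.17 with loess and scale. Wwp2 A_52_P249385 gave -0.054 with array weights and -0.018 without HF-Q replicate 2 (0.021 without HF replicate 1), and A_52_P421805 gave 0.023 with loess and scale. In HF-Q minus t=0, loess with scale turned Itch A_51_P243503 (0.22), Nedd4 A_52_P648424 (0.13) and Smurf1 A_51_P181227 (-0.0068), and median centring turned the same 3 (0.051, 0.062 and -0.0057). Smurf1 A_51_P181227 also gave -0.070 with processed signals, -0.051 with array weights, -0.0054 with loess and -0.018 without HF-Q replicate 2. Smurf1 A_52_P516 gave -0.030 with Cy5 alone, and Wwp2 A_52_P249385 gave -0.051 with array weights and -0.076 without HF-Q replicate 2. Signal over background limits the dimmest of these probes, which reach down to 2.35 times background.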
